A study of Homo sapiens with 14 samples.

Results

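The cell division cycle genes described here were 47 named genes of the G1 to S transition, of DNA replication and of mitosis, out of 24489 rows in each of 2 RNA tables. They were chosen by name and divided by textbook role into 11 G1/S genes, 13 replication genes and 23 genes of mitosis with its S and G2 phase regulators. All 47 had a row in both tables. The libraries came from U251MG, an established human glioblastoma cell line grown in DMEM with serum. Control cells were compared with radioresistant cells, which had received X-rays of 2 Gy per day in 30 fractions, 60 Gy in sum. In that comparison, effects of the irradiation and of the selection of surviving cells cannot be told apart. Radioresistant cells carrying a short hairpin RNA against the DNA sensor gene IFI16 (shIFI16) were compared with radioresistant cells carrying the hairpin labelled shNC. Each of these 4 groups held 3 RNA-seq libraries, and open chromatin was profiled by ATAC-seq in 1 control and 1 radioresistant library. All cells are labelled wild type. Only 1 hairpin against IFI16 is named, without a rescue, so loss of IFI16 and off-target effects of the hairpin cannot be told apart. Nothing in the labels ties replicates to separate cultures. The p-values thus set group differences only against the spread among these libraries, and that spread may be technical.

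The cycle is driven by cyclins, which switch on cyclin-dependent kinases (CDKs). D-type cyclins with CDK4 and CDK6, then E-type cyclins with CDK2, inactivate the RB protein and release E2F transcription factors, which switch on the genes that license and carry out DNA replication. Later, B-MYB (MYBL2), FOXM1 and partners switch on the genes of mitosis, whose products build the spindle, attach the chromosomes and hold division back until attachment is complete. Glioblastomas often carry lesions of the RB arm of this circuit.

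Promoter sequences of the members separated along the same lines. RefSeq promoter windows (GRCh38.p14, 250 bases before to 50 after a start, 300 in all) were found for 37 of the 47 genes, and 10 of these 37 had several starts. The others were CCND1, CCND2, CCNE2, CDK2, AURKA, TTK, MCM4, MCM5, FOXM1 and WEE1. On both strands, the windows were searched for the E2F-type words TTTGGCGC, TTTCCCGC, TTTGGCGG or TTTCCCGG, for TTTGAA, the letters of the cell cycle homology region (CHR) bound by the MuvB complexes, and for CCAAT, the letters bound by NF-Y. An E2F-type word was present in 8 of 11 replication genes, 3 of 7 G1/S genes and 1 of 19 mitosis genes. It was present in 9.02% of the 9791 genes that were expressed enough to be tested in control and radioresistant cells, and in 5.21% of all 27305 genes with a window. In all these shares a gene counted if any of its windows held the word. The CHR word was present in 11 of 19 mitosis genes, 1 of 11 replication genes and 0 of 7 G1/S genes, against 14% of tested genes and 18.2% of all genes with a window. CCAAT was present in 15 of 19 mitosis genes, 8 of 11 replication genes and 3 of 7 G1/S genes, against 44.3% of tested genes and 39.7% of all genes with a window. A match is a description of letters and not a bound site. In MKI67 a CHR word and a CCAAT word overlapped by 1 base.

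The 160 bases just before the start are shown for 4 genes with E2F-type words and 4 with the CHR word, all of which passed the test in at least 1 comparison. Capitals mark matched words, read 5′ to 3′ on the gene's strand, and a word may stand as its reverse complement.
CDC25A (chr3:48188418-48188577, minus strand): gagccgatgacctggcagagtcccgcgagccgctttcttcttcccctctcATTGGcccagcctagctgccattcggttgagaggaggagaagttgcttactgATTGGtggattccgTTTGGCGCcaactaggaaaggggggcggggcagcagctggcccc
CDC6 (chr17:40287719-40287878, plus strand): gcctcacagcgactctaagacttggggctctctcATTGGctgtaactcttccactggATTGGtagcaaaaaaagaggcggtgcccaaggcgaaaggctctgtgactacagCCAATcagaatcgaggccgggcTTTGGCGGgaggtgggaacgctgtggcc
MCM6 (chr2:135876444-135876603, minus strand): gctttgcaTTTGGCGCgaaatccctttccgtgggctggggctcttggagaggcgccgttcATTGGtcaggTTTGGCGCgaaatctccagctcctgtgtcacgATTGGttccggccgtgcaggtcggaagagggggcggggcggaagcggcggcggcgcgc
PCNA (chr20:5126623-5126782, minus strand): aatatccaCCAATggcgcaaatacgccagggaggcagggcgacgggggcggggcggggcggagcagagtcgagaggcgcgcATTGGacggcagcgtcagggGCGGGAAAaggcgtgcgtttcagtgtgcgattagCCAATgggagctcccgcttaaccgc
CCNB2 (chr15:59104986-59105145, plus strand): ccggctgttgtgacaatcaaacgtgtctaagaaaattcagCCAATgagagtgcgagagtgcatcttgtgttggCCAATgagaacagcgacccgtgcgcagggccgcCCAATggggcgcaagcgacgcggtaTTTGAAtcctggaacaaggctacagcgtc
PLK1 (chr16:23678729-23678888, plus strand): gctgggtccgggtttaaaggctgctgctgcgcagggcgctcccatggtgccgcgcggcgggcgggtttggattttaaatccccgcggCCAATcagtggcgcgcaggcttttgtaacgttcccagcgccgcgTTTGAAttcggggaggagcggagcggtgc
BUB1B (chr15:40160909-40161068, plus strand): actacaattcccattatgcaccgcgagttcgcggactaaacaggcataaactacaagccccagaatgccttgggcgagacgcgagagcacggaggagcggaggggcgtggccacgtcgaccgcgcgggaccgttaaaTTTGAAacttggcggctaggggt
CENPA (chr2:26785896-26786055, plus strand): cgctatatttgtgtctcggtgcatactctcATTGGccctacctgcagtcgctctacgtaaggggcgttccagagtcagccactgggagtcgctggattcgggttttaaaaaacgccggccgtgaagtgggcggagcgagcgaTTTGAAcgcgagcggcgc
MCM6 held its E2F-type word at 2 places, and CCNB2 and PLK1 held the CHR word at the same distance, 24 to 29 bases before the start. PCNA had 2 starts, and the window of the other start, not shown, held CCAAT words but no E2F-type word.

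Expression was given in TPM (transcripts per 1000000, which is also the sum of every library), so sequencing depth is unknown and no counting interval could be given. Columns of the RNA tables carry codes, and their groups were read from them: UN as control and UR as radioresistant, after the names of the ATAC-seq files, and URN as shNC, which left URS as shIFI16. As a check of that reading, the level of IFI16 was 125 to 139.6 TPM in shNC and 6.71 to 7.90 TPM in shIFI16 libraries. In the other table IFI16 stood at 49.6 to 71.1 TPM in control and at 243 to 309 TPM in radioresistant libraries. That table holds no knockdown, so no comparable check of UN and UR exists. The hairpin libraries also came from radioresistant cells, but the tables were normalized separately, and their likeness to UR was not tested. Between 12361 and 13016 genes reached 1 TPM in a library. Pearson's r of log2(TPM + 1) across genes, which are not independent replicates, was 0.975 to 0.993 within groups, with the lowest value among the control libraries. All 7 glial markers were tested in the first table and fell in radioresistant cells, from a summed level of 13560 to 13691 TPM to one of 5839 to 6267 TPM. All 4 oligodendrocyte markers together stayed at or under 1.02 TPM and all 3 epithelial markers at or under 2.30 TPM in every library.

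In radioresistant cells the members moved in both directions. Of 46 tested members 9 rose and 6 fell against control cells (limma on log2(TPM + 1), adjusted p under 0.05), and 31 did not pass. Of all 13127 tested genes, 16.9% rose and 27% fell, 43.9% in all, against 32.6% of the tested members. The libraries of the groups did not overlap for 18 members that were higher and 8 that were lower, where 21.5% of all tested genes were higher without overlap and 31.7% lower, 53.1% in all. Their median difference was 0.09 against -0.11 over all tested genes (log2). With median-ratio scaling, which moved that median of all genes to 0.00, 15 members rose and 5 fell (75% of the calls higher, against 60% without it). The largest rises were those of the licensing factor gene CDT1 and the phosphatase gene CDC25A, and the largest falls those of the helicase subunit gene MCM6 and the checkpoint kinase gene BUB1B. CCND2, a D-type cyclin gene, was listed at 0 in all 6 libraries and was not tested. All other members stood at 11.1 TPM or more in every library, so the filter on low values chose none of their directions. In bulk RNA a change in the share of cells in a phase and a change in RNA per cell cannot be told apart.

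Among G1/S genes, 2 of 10 tested rose and 1 fell in radioresistant cells. CDC25A, which removes the inhibitory phosphates from CDK2 (chromosome 3, 48157146 to 48188417), stood at 14.8, 13.8 and 14.6 TPM in control libraries and at 29.2, 28.2 and 38.9 TPM in radioresistant libraries. Every radioresistant library was above every control library, and the log2 difference was 1.09 (SE 0.144, adjusted p = 1.9e-04). CCNE2, an E-type cyclin gene, stood at 34.2, 30.1 and 25.8 TPM against 34.7, 48.4 and 46.0 TPM (log2 difference 0.50, SE 0.156, adjusted p = 0.025). Its groups were separate by a narrow gap, and the call ended with no low-value filter (adjusted p = 0.056) and without control replicate 2 (0.067), radioresistant replicate 2 (0.091) or radioresistant replicate 3 (0.10). CCND1, the D-type cyclin gene that growth factor signals raise (chromosome 11, 69641156 to 69654474), stood at 100.2, 97.3 and 93.2 TPM in control libraries. In radioresistant libraries CCND1 stood at 54.0, 59.5 and 91.3 TPM. Its log2 difference was -0.54 (SE 0.173, adjusted p = 0.028). The radioresistant libraries of CCND1 were uneven, with the highest only just under the lowest control, and the call was lost in 7 of 14 alternatives. Among these were median-ratio scaling (adjusted p = 0.11), quantile normalization (0.053), no low-value filter (0.074), and leaving out control replicate 1 (0.058) or 2 (0.071) or radioresistant replicate 1 (0.11) or 2 (0.088). Among genes that did not pass, CCND3 and CDK4 had differences of 0.24 and 0.21, with every radioresistant library above every control library. The E2F genes E2F1 and E2F2 had differences of 0.05 and 0.15 (adjusted p = 0.77 and 0.39).

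Replication genes rose in 4 of 13 cases and fell in 1 in radioresistant cells, with a median difference of 0.16. CDT1, which with CDC6 loads the MCM helicase on origins (chromosome 16, 88803789 to 88809258), stood at 31.5, 34.6 and 44.9 TPM in control and at 78.5, 78.1 and 89.5 TPM in radioresistant libraries. The groups were far apart, with a log2 difference of 1.14 (SE 0.143, adjusted p = 1.3e-04). CDC6 stood at 86.6, 82.9 and 66.8 TPM against 95.8, 118 and 127 TPM and rose by 0.52 (SE 0.141, adjusted p = 0.012), and its call ended without radioresistant replicate 3 (adjusted p = 0.068). GMNN encodes geminin, the inhibitor of CDT1, and did not pass at a difference of 0.32 (adjusted p = 0.052).

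The 6 subunits of the MCM2-7 helicase, which form a ring in equal parts, did not share a direction in radioresistant cells. MCM5 stood at 117, 129.5 and 122 TPM in control and at 181, 174 and 198 TPM in radioresistant libraries, and it rose by 0.58 (log2, SE 0.105, adjusted p = 0.0013). MCM6 stood at 88.5, 80.1 and 67.6 TPM in control and at 41.8, 48.8 and 49.3 TPM in radioresistant libraries, and it fell by 0.74 (SE 0.131, adjusted p = 0.0012). Libraries of both genes separated completely by group, in opposite directions. MCM2, MCM3, MCM4 and MCM7 had differences of -0.07, -0.09, -0.10 and 0.20, none past the threshold, and the first 3 of these turned above 0 with median-ratio scaling. Of the nucleotide supply genes, RRM2, the regulated subunit of ribonucleotide reductase, stood at 275, 246 and 226 TPM against 304, 352 and 357 TPM and rose by 0.44 (adjusted p = 0.011, or 0.054 without radioresistant replicate 3). Its partner RRM1 and the thymidylate synthase gene TYMS had differences of 0.04 and 0.16 (adjusted p = 0.84 and 0.22). The sliding clamp gene PCNA had a difference of 0.08 (adjusted p = 0.59).

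Genes of mitosis rose in 3 and fell in 4 of 23 cases in radioresistant cells, with a median difference of -0.08. CDC20, which activates the anaphase-promoting complex, stood at 235, 223 and 259 TPM in control and at 321, 322 and 362 TPM in radioresistant libraries and rose by 0.48 (SE 0.107, adjusted p = 0.0042). The spindle pole kinase gene AURKA rose by 0.38, from 176 ± 4.73 to 229 ± 10.1 TPM (mean ± SD, n = 3 each, adjusted p = 0.0099), and the proliferation marker gene MKI67 by 0.42, from 126 ± 14.5 to 169 ± 17.1 TPM (adjusted p = 0.018). BUB1B encodes the checkpoint protein BUBR1, which holds CDC20 back. BUB1B stood at 102, 100.5 and 83.1 TPM in control and at 52.5, 61.0 and 57.3 TPM in radioresistant libraries and fell by 0.73 (SE 0.121, adjusted p = 8.0e-04). Every radioresistant library was under every control library in BUB1B and above every control library in CDC20. CDK1, the mitotic kinase, fell by 0.41 from 247 ± 28.9 to 185 ± 17.3 TPM (adjusted p = 0.018), and WEE1, the kinase that inhibits CDK1, fell by 0.42 from 53.5 ± 5.33 to 39.8 ± 2.60 TPM (adjusted p = 0.017). CCNA1, the A-type cyclin gene best known from the germ line, fell by 0.55 from 19.7 ± 2.28 to 13.1 ± 1.75 TPM (adjusted p = 0.011). The calls of CDK1 and WEE1 each ended without control replicate 1 or 2 or radioresistant replicate 1 or 3 (adjusted p up to 0.075 and 0.074). That of MKI67 ended without radioresistant replicate 2 (0.074) or 3 (0.054), that of CCNA1 without radioresistant replicate 3 (0.051) and that of AURKA without control replicate 2 (0.053). The cyclins that bind CDK1, CCNB1 and CCNB2, had differences of 0.10 and -0.20 (adjusted p = 0.50 and 0.21).

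The control libraries were not alike in these genes. Control replicate 3 was lowest of its group in 16 of 23 genes of mitosis, for example at 304 TPM against 437 and 415 TPM for the topoisomerase gene TOP2A and at 106 TPM against 150.0 and 152 TPM for the kinetochore gene CENPF. Without that library 14 members rose and 12 fell, and without control replicate 1 or 2 only 3 fell. Without control replicate 3, TOP2A, CENPF and the kinetochore motor gene CENPE had differences of -0.44, -0.50 and -0.41 (adjusted p = 0.0033, 0.0018 and 0.019), against -0.28, -0.33 and -0.18 with all libraries. Without radioresistant replicate 3 the counts were 5 and 3, and without radioresistant replicate 1 only 3 fell.

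**Figure D1:**
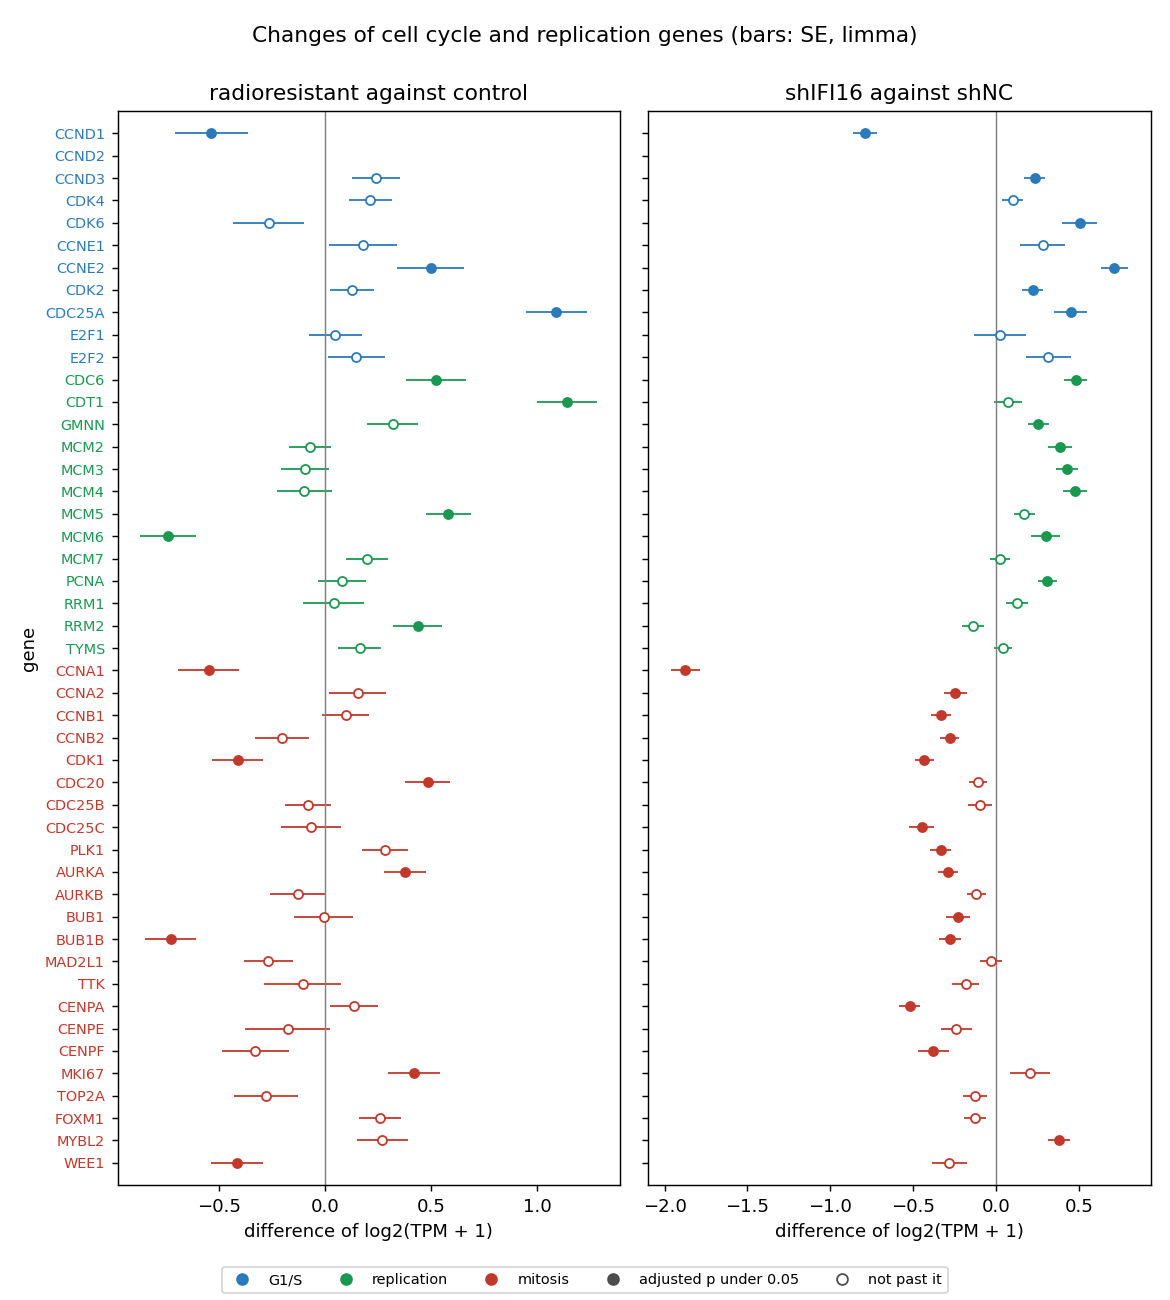
Each point is the difference of log2(TPM + 1) of 1 gene (x axis) with its SE, for radioresistant against control cells on the left and shIFI16 against shNC cells on the right. Points are filled where the adjusted p was under 0.05, CCND2 was not tested, and the right panel shows 7 of 13 replication genes raised and 12 of 23 mitosis genes lowered.

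After knockdown of IFI16 in radioresistant cells, the G1/S and replication genes that passed the test mostly rose and those of mitosis mostly fell. Of 13 replication genes 7 rose and 0 fell, of 10 tested G1/S genes 5 rose and 1 fell, and of 23 mitosis genes 1 rose and 12 fell against shNC cells. Over all 12567 tested genes 16.6% rose and 16.3% fell, 32.9% in all, and 56.5% of the 46 tested members were called. At an unadjusted p under 0.05 (limma) 1 replication gene, RRM2, was lower. The groups did not overlap for 16 members that were higher and 16 that were lower, where 23.4% of all tested genes were higher without overlap and 21.4% lower, 44.8% in all. The median log2 difference was 0.25 in replication genes, 0.25 in G1/S genes and -0.25 in mitosis genes, against 0.02 over all tested genes. The direction went with the role: of the 13 members that fell, CCND1 was the only gene outside mitosis, and of the 13 that rose, MYBL2 was the only gene of the mitosis group. CCND2 was again too low to test, with at most 0.0686 TPM in a library, and all other members stood at 10.5 TPM or more.

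Among G1/S genes, CCNE2 had the largest rise after knockdown. It stood at 29.8, 29.3 and 28.3 TPM in shNC and at 51.2, 48.1 and 45.9 TPM in shIFI16 libraries (log2 difference 0.71, SE 0.0799, adjusted p = 5.6e-06). CDK6, a kinase partner of D-type cyclins, rose by 0.50 from 17.6 ± 1.30 to 25.5 ± 3.38 TPM (adjusted p = 0.0017). CDC25A stood at 28.4, 27.7 and 22.7 TPM against 39.0, 36.5 and 32.9 TPM and rose by 0.45 (adjusted p = 0.0027). CDK2 and CCND3 rose by 0.22 and 0.23 (adjusted p = 0.015 and 0.011), and the calls of both ended without shNC replicate 3 (adjusted p = 0.074 and 0.069) or shIFI16 replicate 2 (0.062 and 0.073). That of CDK2 also ended with plain variance moderation (0.055). CCND1 went the other way, from 184, 179 and 158 TPM in shNC to 104, 99.6 and 95.6 TPM in shIFI16 libraries, a fall by 0.79 (SE 0.0703, adjusted p = 4.5e-07) that held in all 14 alternatives. The shNC and shIFI16 libraries of CCND1, CCNE2, CDK6 and CDC25A did not overlap. CDK4, CCNE1, E2F1 and E2F2 did not pass, with differences of 0.10, 0.28, 0.02 and 0.31.

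Of the replication genes, the largest rises after knockdown were those of CDC6, MCM4 and MCM3. CDC6 stood at 67.2, 66.0 and 64.7 TPM in shNC and at 96.4, 90.7 and 89.7 TPM in shIFI16 libraries, a rise by 0.48 (SE 0.0671, adjusted p = 5.1e-05). The helicase genes MCM4, MCM3, MCM2 and MCM6 rose by 0.47, 0.42, 0.38 and 0.30 (adjusted p = 9.4e-05, 1.3e-04, 5.9e-04 and 0.014). MCM5 and MCM7 did not pass, with differences of 0.17 (adjusted p = 0.054) and 0.02 (adjusted p = 0.82). MCM6, which had fallen in radioresistant cells, stood at 49.8, 54.0 and 48.1 TPM in shNC and at 68.4, 63.7 and 55.5 TPM in shIFI16 libraries, groups that lay close together. The call of MCM6 ended without shNC replicate 3 (adjusted p = 0.056) or shIFI16 replicate 2 (0.059), with no low-value filter (0.055) and with plain variance moderation (0.051). PCNA stood at 296, 309 and 293 TPM against 367, 375 and 370.2 TPM, with little spread inside either group, and rose by 0.31 (SE 0.0561, adjusted p = 5.6e-04). GMNN rose by 0.25 (adjusted p = 0.0058), whereas CDT1 had a difference of 0.07 (adjusted p = 0.55). The nucleotide supply genes RRM1, RRM2 and TYMS did not pass, with differences of 0.12, -0.14 and 0.04.

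Genes of mitosis fell by small steps, with CCNA1 apart from the rest. CCNA1 (chromosome 13, 36431517 to 36442870) stood at 50.4, 51.3 and 49.9 TPM in shNC and at 12.3, 14.2 and 12.7 TPM in shIFI16 libraries, 3.87-fold lower on the means (log2 difference -1.87, SE 0.0875, adjusted p = 3.9e-10). CENPA, the histone variant gene that marks centromeres, was the next in size and stood at 112, 107 and 109 TPM against 76.1, 76.5 and 75.0 TPM, a fall by 0.52 (SE 0.0638, adjusted p = 1.3e-05). CDC25C, which activates CDK1, fell by 0.45 from 54.7 ± 2.53 to 39.7 ± 1.80 TPM (adjusted p = 3.2e-04), and CDK1 by 0.43 from 224 ± 8.77 to 165 ± 4.50 TPM (adjusted p = 4.4e-05). CCNB1 stood at 785, 868 and 821 TPM in shNC and at 679, 652 and 627 TPM in shIFI16 libraries and fell by 0.34 (adjusted p = 4.8e-04). CCNB2 and CCNA2 fell by 0.28 and 0.25 (adjusted p = 0.0017 and 0.011), so that all 4 tested A-type and B-type cyclin genes were lower. In none of them did an shIFI16 library reach the level of an shNC library. The call of CCNA2 ended without shNC replicate 2 (adjusted p = 0.059) and with plain variance moderation (0.057).

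Of the mitotic kinase and spindle checkpoint genes, PLK1, AURKA, BUB1B and BUB1 fell, in addition to CDK1. PLK1, which drives entry into mitosis, fell by 0.34 from 307 ± 14.9 to 243 ± 11.5 TPM (adjusted p = 6.3e-04), and AURKA by 0.29 from 280.3 ± 10.5 to 229 ± 10.5 TPM (adjusted p = 0.0016). The checkpoint kinase genes BUB1B and BUB1 fell by 0.28 and 0.23 (adjusted p = 0.0046 and 0.023), and the call of BUB1 ended without shNC replicate 1 (0.060) or 2 (0.092), without shIFI16 replicate 2 (0.057) or 3 (0.077), with no low-value filter (0.065) and with plain variance moderation (0.079). CENPF fell by 0.38 (adjusted p = 0.0079). The rise of MYBL2, itself a gene that E2F factors switch on, was from 151, 153 and 141 TPM to 199.9, 199 and 180.0 TPM (log2 difference 0.38, SE 0.0653, adjusted p = 3.7e-04), with no overlap of the groups. In the promoter window of MYBL2 none of the E2F-type words searched here was found. The gene of its partner factor, FOXM1, had a difference of -0.13 (adjusted p = 0.15). CDC20, CDC25B, AURKB, MAD2L1, TTK, CENPE, TOP2A and WEE1 had differences from -0.29 to -0.03 and did not pass. MKI67 did not pass at 0.20 (adjusted p = 0.24), so the 2 genes of the group with a difference above 0 were MYBL2 and MKI67.

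**Figure D2:**
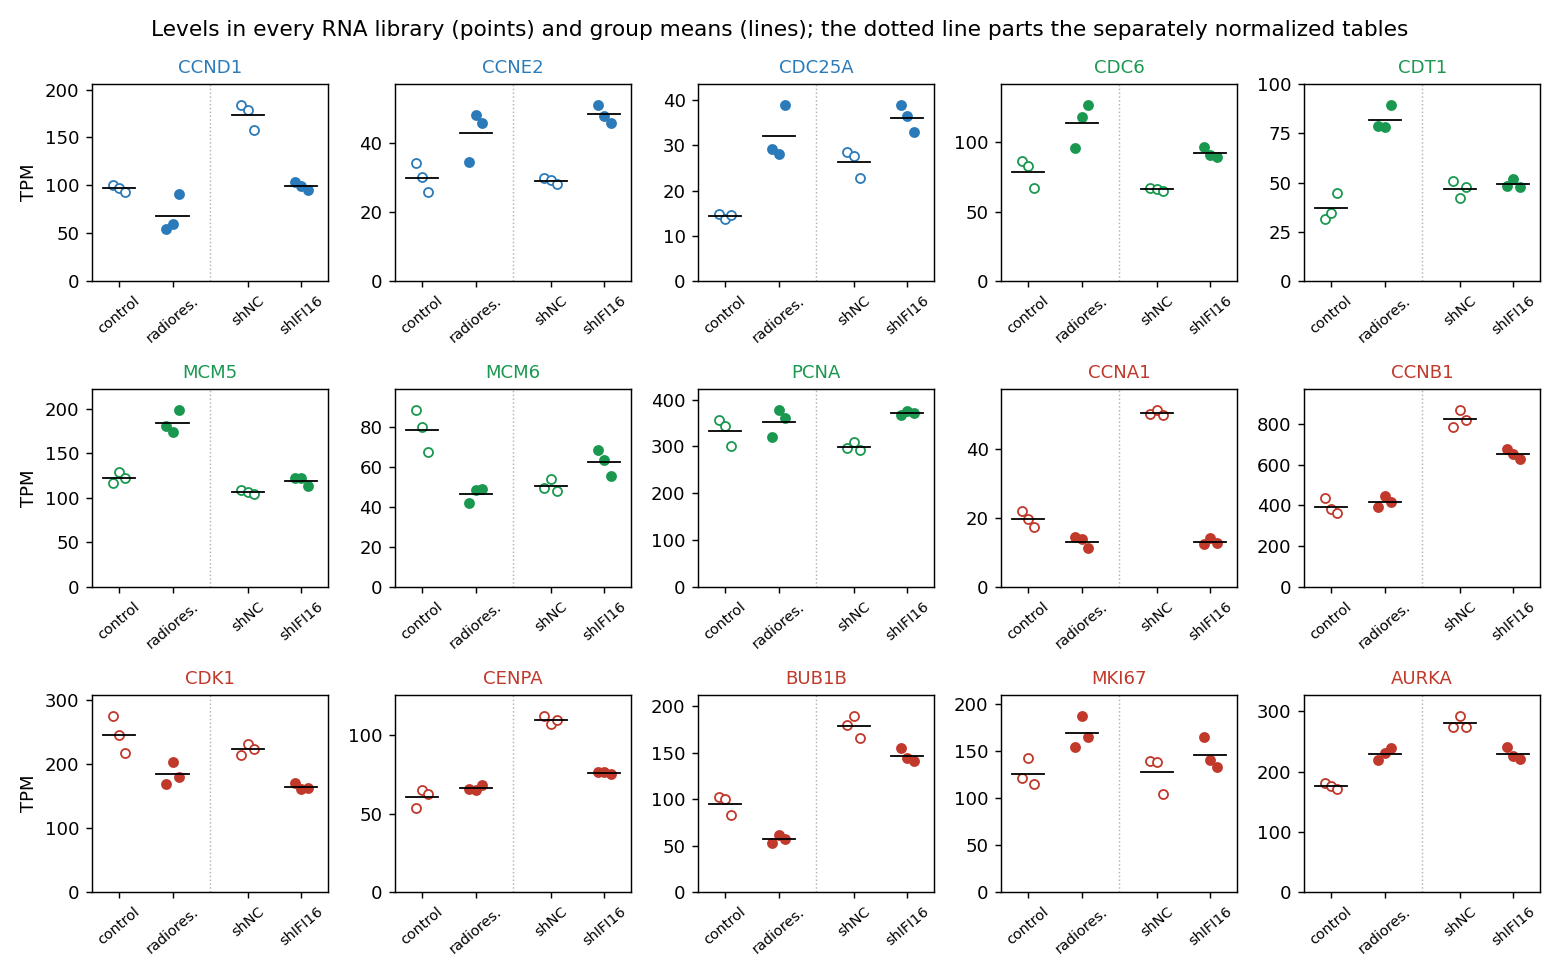
TPM of 15 members (y axis, from 0) in each of the 12 RNA libraries, with 3 points and a mean line per group. CCNA1 drops from about 50 to about 13 TPM after knockdown, and MCM6 falls in radioresistant cells but rises after knockdown.

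Summed over a group of genes, the replication and mitosis members separated the hairpin libraries, whereas the G1/S members did not. The G1/S genes summed to 746, 713 and 685 TPM in shNC and to 759.9, 744 and 698 TPM in shIFI16 libraries, and these ranges overlapped. CCND1 made up 184, 179 and 158 TPM of the shNC sums and 104, 99.6 and 95.6 TPM of the shIFI16 sums. CCND1 was the 1 tested G1/S gene with a difference below 0, and 9 of 10 had a difference above 0. A G1/S sum without CCND1 was not tested. The 13 replication genes summed to 2430.2, 2442 and 2344 TPM in shNC and to 2724, 2696 and 2608 TPM in shIFI16 libraries. The 23 mitosis genes summed to 4737, 4976 and 4645 TPM in shNC and to 4297, 4134 and 3939 TPM in shIFI16 libraries. The sum for mitosis divided by the sum for replication was 1.99 ± 0.0447 in shNC and 1.54 ± 0.0342 in shIFI16 libraries (mean ± SD, n = 3 each), and no library of either group reached the range of the other. In the first table this ratio was 1.35 ± 0.0272 in control and 1.21 ± 0.0598 in radioresistant libraries, also without overlap. There the replication genes summed to 2509 ± 123 and 2841 ± 196 TPM and the mitosis genes to 3394 ± 225 and 3423 ± 203 TPM. All 47 members together made up 0.628 to 0.736% of the TPM of control and radioresistant libraries and 0.725 to 0.813% of the TPM of hairpin libraries. The mitosis sum was higher in shNC libraries than in the radioresistant libraries without a hairpin, but these came from separately normalized tables, so the difference was not tested.

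**Figure D3:**
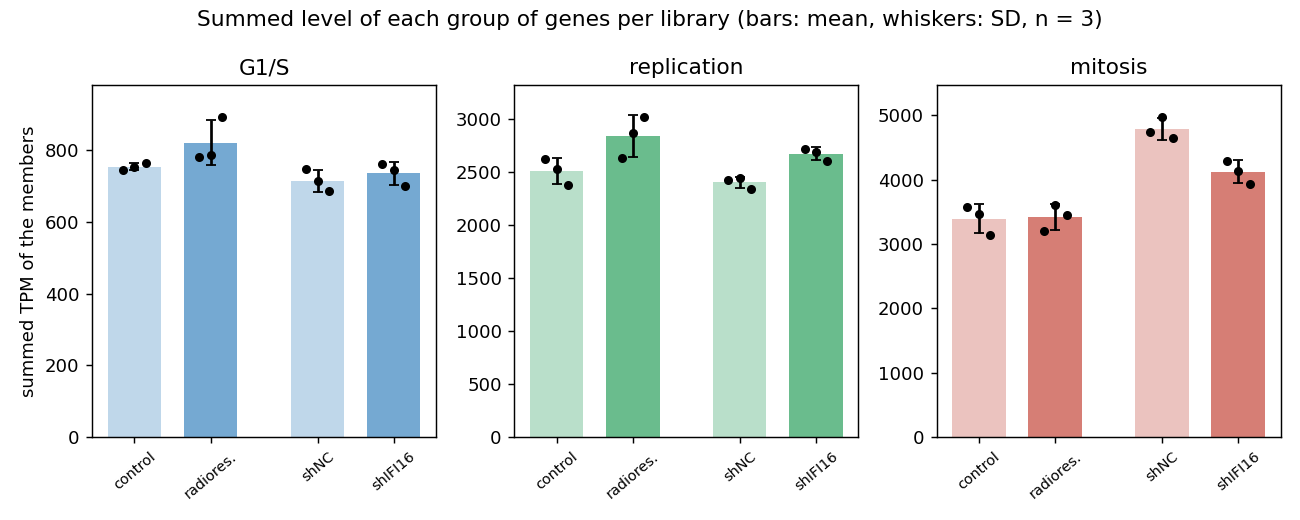
Summed TPM of the G1/S, replication and mitosis members (y axes, from 0) in each RNA library (points), with the group mean (bar) and SD (whisker, n = 3). After knockdown the replication sum is higher and the mitosis sum lower in every shIFI16 library than in every shNC library.

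The remainder of the pathway was followed in lists of genes that are not members, chosen by textbook role. After knockdown, 20 of 46 other replication genes rose and 5 fell (median 0.20), and 30 of 46 other mitosis genes fell and 1 rose (median -0.29). In radioresistant cells the same lists gave 9 raised and 5 lowered (median 0.07) and 10 raised and 1 lowered (median 0.08). The shares called there were 30.4% and 23.9%, under the 43.9% of all tested genes, whereas after knockdown they were 54.3% and 67.4%, against 32.9% of all tested genes. After knockdown the fork protection gene TIPIN and the single-strand binding gene RPA1 rose by 0.62 and 0.44 (adjusted p = 1.9e-05 and 4.8e-04), while RNASEH2A, which removes RNA from DNA, fell by 0.36 (adjusted p = 1.8e-04). The ubiquitin-conjugating gene UBE2C, which serves the anaphase-promoting complex, fell by 0.49 from 838 ± 26.8 to 597 ± 30.8 TPM (adjusted p = 1.3e-05). The spindle gene DLGAP5 and the CDK-binding gene CKS2 fell by 0.46 and 0.43 (adjusted p = 6.0e-05 and 5.1e-05), and the lamin gene LMNB1 rose by 0.48 (adjusted p = 3.6e-05). LMNB1 encodes a nuclear lamina protein and was the 1 gene of that list to rise. In radioresistant cells GTSE1, which binds microtubules and p53, rose by 1.22 from 75.9 ± 1.15 to 178 ± 5.98 TPM (adjusted p = 6.0e-06), the cohesin regulator gene CDCA5 rose by 0.61 and the checkpoint gene BUB3 by 0.54 (adjusted p = 0.0011 and 0.0020). The histone chaperone gene CHAF1B and the flap nuclease gene FEN1 rose by 0.77 and 0.56 and RPA1 fell by 0.70 (adjusted p = 4.4e-04, 0.0028 and 5.4e-04).

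Of 25 other G1/S genes, which included the RB and E2F arm but also genes such as CDK7 and CUL1, 4 rose and 4 fell in each comparison. These 32% called lay under the 43.9% of all genes in radioresistant cells and near the 32.9% after knockdown. RBL2, which encodes the RB relative p130, fell by 1.32 in radioresistant cells from 86.1 ± 14.5 to 33.8 ± 4.78 TPM (adjusted p = 7.6e-05), and E2F5, an E2F of the repressing kind, fell by 1.21 from 57.5 ± 8.42 to 24.1 ± 1.30 TPM (adjusted p = 5.5e-05). TFDP1, the dimer partner of the E2F proteins, rose in both comparisons, by 0.71 in radioresistant cells and by 0.46 after knockdown (adjusted p = 4.4e-04 and 1.7e-05). SKP2, which marks the CDK inhibitor p27 for destruction, rose by 0.78 after knockdown from 26.1 ± 1.63 to 45.7 ± 4.66 TPM (adjusted p = 8.1e-06), and LIN52, a MuvB subunit gene, fell by 0.89 from 17.9 ± 1.68 to 9.27 ± 1.76 TPM (adjusted p = 4.4e-05). Of 7 CDK inhibitor genes 4 were tested, of which 2 rose and 1 fell in radioresistant cells and 3 fell after knockdown. CDKN3, a phosphatase gene of that list, was the third to fall, by 0.33 (adjusted p = 8.5e-04). CDKN1A, which encodes p21, rose in radioresistant cells by 0.62 (adjusted p = 0.014) and after knockdown fell by 0.85, from 59.7 ± 4.23 to 32.7 ± 3.41 TPM (adjusted p = 3.1e-06). CDKN2D, which encodes the CDK4 and CDK6 inhibitor p19, fell by 1.02 after knockdown, from 66.8 ± 2.09 to 32.6 ± 3.95 TPM (adjusted p = 3.5e-07), and rose by 0.59 in radioresistant cells (adjusted p = 0.049) with overlapping groups. CDKN1B, which encodes p27, fell by 0.50 in radioresistant cells (adjusted p = 0.0049) and had a difference of 0.08 after knockdown. CDKN2B and CDKN2C were listed at 0 in all 12 libraries.

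The comparisons share no library, and 9 members passed the threshold in both, which is 60% of the 15 members called in radioresistant cells and 34.6% of the 26 called after knockdown. Since 56.5% of all tested members were called after knockdown, the 60% lay near the members' own rate. CCNE2, CDC25A and CDC6 rose in both, and CCND1, CCNA1, CDK1 and BUB1B fell in both. AURKA rose in radioresistant cells and fell after knockdown, and MCM6 fell in radioresistant cells and rose after knockdown. Of all 47 members, 15 were called in neither comparison, the untested CCND2 among them. The difference between the comparisons was not tested, since the tables were normalized separately.

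**Figure D4:**
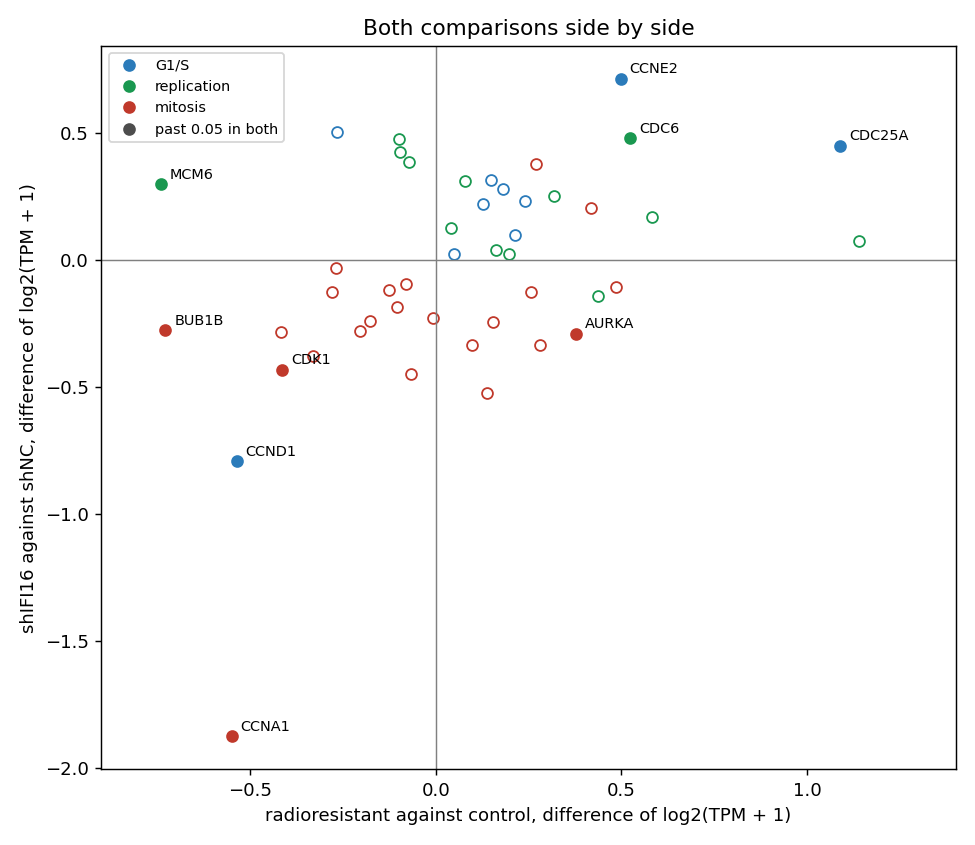
The difference of log2(TPM + 1) in radioresistant against control cells (x axis) and in shIFI16 against shNC cells (y axis) for the 46 tested members. Filled, named points passed an adjusted p of 0.05 in both comparisons, and AURKA and MCM6 are the 2 of them with opposite signs.

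Markers of other cell types also differed between groups. The 4 endothelial markers summed to 7.69 to 8.64 TPM in control and 0.791 to 1.28 TPM in radioresistant libraries. CDH5, the 1 endothelial marker tested, made up most of the control sum. The 5 neuron markers summed to 369 to 419.8 and 286 to 316 TPM. In the knockdown set the 5 immune markers summed to 37.2 to 40.2 TPM in shNC and 13.99 to 16.8 TPM in shIFI16 libraries, with CD3E and AIF1 listed at 0 throughout and only 1 marker high enough to test. Endothelial markers there summed to 2.97 to 4.12 TPM in shNC and 8.75 to 10.9 TPM in shIFI16 libraries, nearly all of it CDH5, while PECAM1 had means of 0.121 and 0.0374 TPM. Of the 5 neuron markers 2 fell, and the list summed to 319.7 to 326 TPM in shNC and 268 to 289 TPM in shIFI16 libraries. The 7 glial markers summed to 6559 to 7165 and 4689 to 5488 TPM, with 2 of 6 tested raised and 2 lowered. The astrocyte filament gene GFAP rose from 1.73 ± 0.344 to 31.1 ± 1.67 TPM and FABP7 from 48.0 ± 2.07 to 65.9 ± 2.85 TPM, while VIM fell from 6526 ± 307 to 4649 ± 422 TPM and NES from 126 ± 6.20 to 96.5 ± 7.78 TPM (mean ± SD, n = 3 each, limma adjusted p = 3.6e-12, 2.3e-04, 4.5e-05 and 7.6e-04). The part of these and the glial markers in the changes of the members was not tested.

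Open chromatin near the starts of the members was read from the authors' lists of MACS2 summits, 2454 in the control and 12877 in the radioresistant library. A summit within 1000 bases of a start was listed for 1 of the 37 members with a RefSeq start in the control library and for 20 of 37 in the radioresistant library. Over the 9791 tested genes with a start the shares were 6.99% and 38.1%, and over the members 2.70% and 54.1%. By group, the radioresistant list held a summit for 3 of 7 G1/S genes, 6 of 11 replication genes and 11 of 19 mitosis genes. With 1 library per condition there is no test, and the lists differ in length throughout the genome. GMNN was the 1 member with a summit in both libraries, at 87 bases from a start in the control and at 111 bases from another start in the radioresistant library. These summits lay at different positions of chromosome 6, 24775500 in the control and 24775048 in the radioresistant library. The strongest summit at a member in the radioresistant library lay 145 bases from a start of CDC25C, with a score of 12.2. It was followed by CDK4 (8.69), GMNN (7.31) and CCNB1 (6.15). The score was read as a -log10 q-value from the file layout. Summits lay within 1 base of the start of CCNB2 (chromosome 15, position 59105147) and 8 bases from that of CCNB1. The PCNA summit of the radioresistant library lay 286 bases from the start at chromosome 20, position 5119958. The PCNA stretch shown above belongs to the other start of that gene. With the 2454 strongest summits of each library the counts were 1 and 3 members. The radioresistant share was then 8.11% of members against 9.37% of tested genes, so the members no longer stood above the tested genes. With a score of at least 10 the counts were 0 and 1, and the radioresistant share was 2.70% against 2.24%.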

How the data were processed

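The authors deposited 2 RNA-seq tables that are named as counts but hold TPM, since each column sums to 1000000 and values are not whole. Per the submitters' processing notes, the RNA tools were Cufflinks 2.2.1, TopHat, featureCounts and Trim Galore 0.6.6, with the build hg38, and the notes on ATAC-seq add Bowtie2 2.2.5, SAMtools 1.10 and MACS2 2.1.4. Which tool made the TPM, the annotation, strand use and caller settings were not stated there. The authors deposited 1 summit list per ATAC-seq library, whose score was read as a -log10 q-value from the file layout.

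Each table was fitted alone with limma 3.58.1 (R 4.3.3). Values entered as log2(TPM + 1), a scale that understates changes of low genes. A gene was tested if 3 of its 6 libraries reached 1 TPM. Variance moderation was trended and robust, and Benjamini-Hochberg adjustment ran over all genes tested (threshold 0.05). Date-like row names (28 in each file, 0.115 to 0.190% of TPM) were dropped. The script was tested on simulated data. Genes with close copies or overlapping neighbours have uncertain values.

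The members and lists were chosen with earlier results of these data known. All members could be named, those called in either comparison with their values. Of each other list up to 4 genes per comparison were named, those past the threshold with the smallest p. CDKN1B after knockdown, CDKN2B, CDKN2C and the single markers CDH5, PECAM1, GFAP, FABP7, VIM and NES were added after their values were seen. Some genes of these lists are not reported here by name. Summits were matched to RefSeq starts (GRCh38.p14) within 1000 bases, and a gene counted for a motif or a summit if any of its starts had it. Alternatives were pseudocounts, filters, scalings, variance options, a replicate block, left-out libraries and, for summits, distance and score.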

Additional observations from a re-analysis of the deposited data

How the results depend on the processing

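No called member changed direction under any of the 14 alternatives run for each comparison. Of the 15 members called in radioresistant cells, 6 kept their call in every alternative (CDC25A, CDT1, MCM5, MCM6, CDC20 and BUB1B) and 13 uncalled members gained one somewhere. Of the 26 called after knockdown, 21 kept it and 11 uncalled members gained one. Median-ratio scaling raised the members that rose in radioresistant cells from 9 to 15, and the higher share of all called genes from 38.5% to 49.6%. Leaving out 1 library gave 5 to 14 raised and 3 to 12 lowered members there, and 10 to 15 raised and 11 to 17 lowered after knockdown. With a summit score of at least 10, members with a summit numbered 0 in the control and 1 in the radioresistant library, and 3 in the radioresistant library with equal numbers of summits; the shorter lists are part of that setting. The cause of the other shifts was not tested.

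Control and radioresistant libraries with the same replicate number did not deviate together in every pair (r of -0.38, 0.24 and 0.08). For shNC and shIFI16 libraries the same-number r were 0.22, 0.09 and 0.03, against -0.23 to 0.15 for unlike numbers. Whether a shared number stands for a shared culture or run was not tested. With a replicate block 9 members rose and 6 fell in radioresistant cells, and 17 rose and 19 fell after knockdown. Over all genes the block gave 2110 raised and 3462 lowered, and 3001 raised and 2609 lowered. Sequencing depth is unknown, so depth limits could not be given.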
